A study of Mus musculus with 12 samples.

Results

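Complement is a set of plasma and tissue proteins that tag synapses, debris and microbes for removal. C1q, a hexamer built from the products of *C1qa*, *C1qb* and *C1qc*, opens the classical pathway, C3 is the component on which all pathways converge, and the fragments C3a and C5a act on the receptors C3ar1 and C5ar1 or C5ar2. CD11b (*Itgam*) and CD18 (*Itgb2*) pair as complement receptor 3, which binds fragments of C3 on a tagged surface. In the brain, microglia are the main makers of C1q and use complement receptor 3 to engulf tagged synapses.

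The 9 genes above were followed in chromatin immunoprecipitation with sequencing (ChIP-seq) of microglia, taking each peak that the deposited tables name for one of them: 51 of 26706 peaks of Rpb2, a subunit of RNA polymerase II, and 24 of 55862 peaks of H3K27ac, the histone acetylation found at active promoters and enhancers. Microglia came from 2-mo-old C57BL/6J mice that were *Cx3cr1*-WT or *Cx3cr1*-deficient (KO, both copies disrupted by *eGFP*), littermates from crosses of heterozygous carriers. Each library held cells pooled from 3 mice of the same sex, and each genotype had 2 pools for each antibody, labelled F and M (n = 2). The cells were sorted as CD11b+CD45lo, so the product of *Itgam* was itself part of the gate. The question was whether loss of the fractalkine receptor CX3CR1 alters polymerase or acetylation at complement genes.

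Library totals ran from 11662185 to 44332626 reads for Rpb2 and from 10395804 to 21134403 for H3K27ac. The share of reads inside peaks was 11.2% to 15.1% for Rpb2, but for H3K27ac it was 15.9% in the WT female library against 61.1% to 65.3% in the other 3. In Rpb2, the library labelled WT female held 136 reads at Y-linked genes (*Ddx3y*, *Uty* and *Eif2s3y*), against 0 in the KO female library, so its label goes against its reads and it is called the library labelled WT female. *Cx3cr1* had 2759 and 2351 CPM of Rpb2 (counts scaled to the reads of each library in tested peaks) in WT and 2124 and 1893 in KO over all its peaks. No peak reads the *eGFP* insert, which the mm10 genome does not hold, so these values do not check the genotype labels. All 12 microglia markers had Rpb2 peaks, with a summed level of 12239 to 12621 CPM in WT and 11975 to 12403 in KO. *Cx3cr1*, the disrupted gene, is among the 12, and its lower KO values enter the KO sums. These sums thus do not compare microglial content apart from the genotype. None of the 4 border macrophage, 6 neutrophil and monocyte, 6 B and T cell, 5 astrocyte and 5 neuron markers had an Rpb2 peak named for it, whereas 2 of 5 oligodendrocyte markers (128 to 163 CPM in WT, 135 to 163 in KO) and 3 of 5 endothelial markers (115 to 149 in WT, 99.8 to 119 in KO) did. In H3K27ac the microglia markers summed to 5212 and 9098 CPM in WT and to 7021 and 7294 in KO. *Cx3cr1* is again among them, with 1024 and 1765 CPM in WT and 1006 and 1056 in KO. Oligodendrocyte markers summed to 309 and 380 CPM in WT and 340 and 379 in KO, endothelial markers to 273 and 336 and to 340 and 343, border macrophage markers to 52.6 and 64.8 and to 52.6 and 60.7, and neutrophil and monocyte markers to 53.7 and 82.0 and to 41.8 and 52.0. Neuron markers summed to 67.2 and 45.9 CPM in WT and 37.0 and 31.0 in KO, and B and T cell markers to 25.6 and 26.6 and to 18.4 and 23.3. For these, as for the neutrophil and monocyte markers, both KO pools were under both WT pools. Astrocyte markers had 19.7 CPM in the WT female library, 0.648 in KO male and 0 in the other 2. Apart from leaving out each library, the part of these differences in the complement results was not tested. Fewer cells of a type and less signal per cell cannot be told apart in such pools.

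The sequences around 4 gene starts are shown: *C1qb* and *C1qc* had the densest promoter peaks of the set in WT, *Itgam* encodes the sorted antigen, and *C3* had no Rpb2 peak. Whether these sequences bear on the Rpb2 levels was not tested. Each is 300 bases of RefSeq on GRCm38.p6, from 250 bases before the annotated start to 50 after, with base 251 as the start, read in the direction of the gene. Capitals mark the letters GAGGAA or their reverse complement, the core of the sites bound by the myeloid factor PU.1, which 28.3% of 32851 promoters in the same collection hold.
C1qb, chr4:136886151-136886450, minus strand: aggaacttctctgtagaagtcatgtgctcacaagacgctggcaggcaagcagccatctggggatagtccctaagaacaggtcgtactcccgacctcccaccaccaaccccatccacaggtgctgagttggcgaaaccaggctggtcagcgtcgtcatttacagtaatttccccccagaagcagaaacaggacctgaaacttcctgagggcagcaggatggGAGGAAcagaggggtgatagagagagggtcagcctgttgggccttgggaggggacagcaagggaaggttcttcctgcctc
C1qc, chr4:136892865-136893164, minus strand: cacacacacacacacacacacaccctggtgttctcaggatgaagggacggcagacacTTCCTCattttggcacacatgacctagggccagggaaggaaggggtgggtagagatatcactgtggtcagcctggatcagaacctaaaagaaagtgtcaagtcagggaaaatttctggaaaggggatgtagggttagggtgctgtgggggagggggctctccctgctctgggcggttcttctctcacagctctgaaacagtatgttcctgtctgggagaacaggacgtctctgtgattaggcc
Itgam, chr7:128062390-128062689, plus strand: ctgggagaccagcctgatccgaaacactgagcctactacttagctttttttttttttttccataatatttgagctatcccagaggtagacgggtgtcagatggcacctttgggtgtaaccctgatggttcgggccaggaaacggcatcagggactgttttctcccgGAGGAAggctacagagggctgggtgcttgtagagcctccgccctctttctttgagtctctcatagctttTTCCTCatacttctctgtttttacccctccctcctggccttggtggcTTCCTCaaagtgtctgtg
C3, chr17:57228087-57228386, minus strand: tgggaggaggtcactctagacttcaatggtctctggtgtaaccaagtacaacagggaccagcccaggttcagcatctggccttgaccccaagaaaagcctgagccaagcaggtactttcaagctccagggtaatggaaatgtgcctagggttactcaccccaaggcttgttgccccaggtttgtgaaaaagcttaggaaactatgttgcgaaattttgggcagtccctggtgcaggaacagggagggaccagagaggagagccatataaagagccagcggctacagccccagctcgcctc
The core stood 30 bases before the start of *C1qb*, 193 bases before that of *C1qc*, at 3 places in *Itgam* and 26 bases before the downstream start of *C5ar2*, both strands being searched, and was not among the letters of the *C3* window. The longer PU.1 letters GAGGAAGT, in 3.20% of all promoters, were found among the member promoters only in *C1qc*, where they overlap the core. The *C3* window held TATAAA, 14 bases after the annotated start (13.6% of all promoters), and TTGCNNAA, the letters searched for C/EBP (10.8%). Windows were given for 7 of the 9 genes, with 2 starts for *C5ar2*. Of these 8 windows, an Rpb2 peak covered 65 to 151 bases in 7 and an H3K27ac peak covered all 300 bases in the same 7, and neither covered a base of the *C3* window.

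Polymerase was dense at the starts of the C1q genes and at *C3ar1*, intermediate at the integrin genes and *C5ar2*, and low at *C5ar1*. Levels between genes are CPM per kb of peak, at the peak within 1000 bp of a start with most reads. In WT, *C1qb* stood at 925 ± 152 (SD, n = 2), rank 187 of 8350 genes with a promoter peak, and *C1qc* at 922 ± 171, rank 191. *C1qa* followed at 744 ± 15.8 (rank 341) and *C3ar1* at 669 ± 42.5 (rank 462). *Itgb2* had 530 ± 63.2 and *Itgam* 472 ± 27.6, *C5ar2* 294 ± 54.6 and *C5ar1* 82.3 ± 26.3, the last below the median of 184 over all promoter peaks. In WT the pools of neighbours in this order overlapped for *C1qb* and *C1qc* and for *Itgb2* and *Itgam*. In KO the order was *C1qc* (941 ± 36.0), *C1qa* (783 ± 19.8), *C1qb* (753 ± 21.05), *C3ar1* (536 ± 86.3), *Itgb2* (494 ± 167), *Itgam* (357 ± 4.96), *C5ar2* (255 ± 102) and *C5ar1* (85.9 ± 24.6). Among KO neighbours, the pools of *C3ar1* and *Itgb2* overlapped. *C3* had no Rpb2 peak named for it and none of any name over its gene body (chr17:57203970-57228136).

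Summed over all its peaks, *C1qb* ranked 18 of 10206 genes in WT at 1281 ± 134 CPM over 12 peaks, *C1qc* ranked 88 at 729 ± 20.6 CPM over 6, and *C3ar1* ranked 271 at 436 ± 2.19 CPM over 8. Names follow the nearest start, so these sums, and the shares below, mix neighbours. Peaks named for *C1qc* at -2073 bp and -2638 bp, at the annotated end of *C1qa*, held 26.5% and 13.7% of the *C1qc* WT signal. The promoter peak held 58.5% of the WT signal of *C1qa*, 57.6% of *Itgam* and 51.1% of *Itgb2*, but 17.2% of *C1qb*. The other *C1qb* reads lay along the gene, past its end and upstream of its start. Upstream peaks at -1837 bp and -2798 bp held 9.91% and 9.59%, the latter at the annotated end of *C1qc*.

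**Figure D1:**
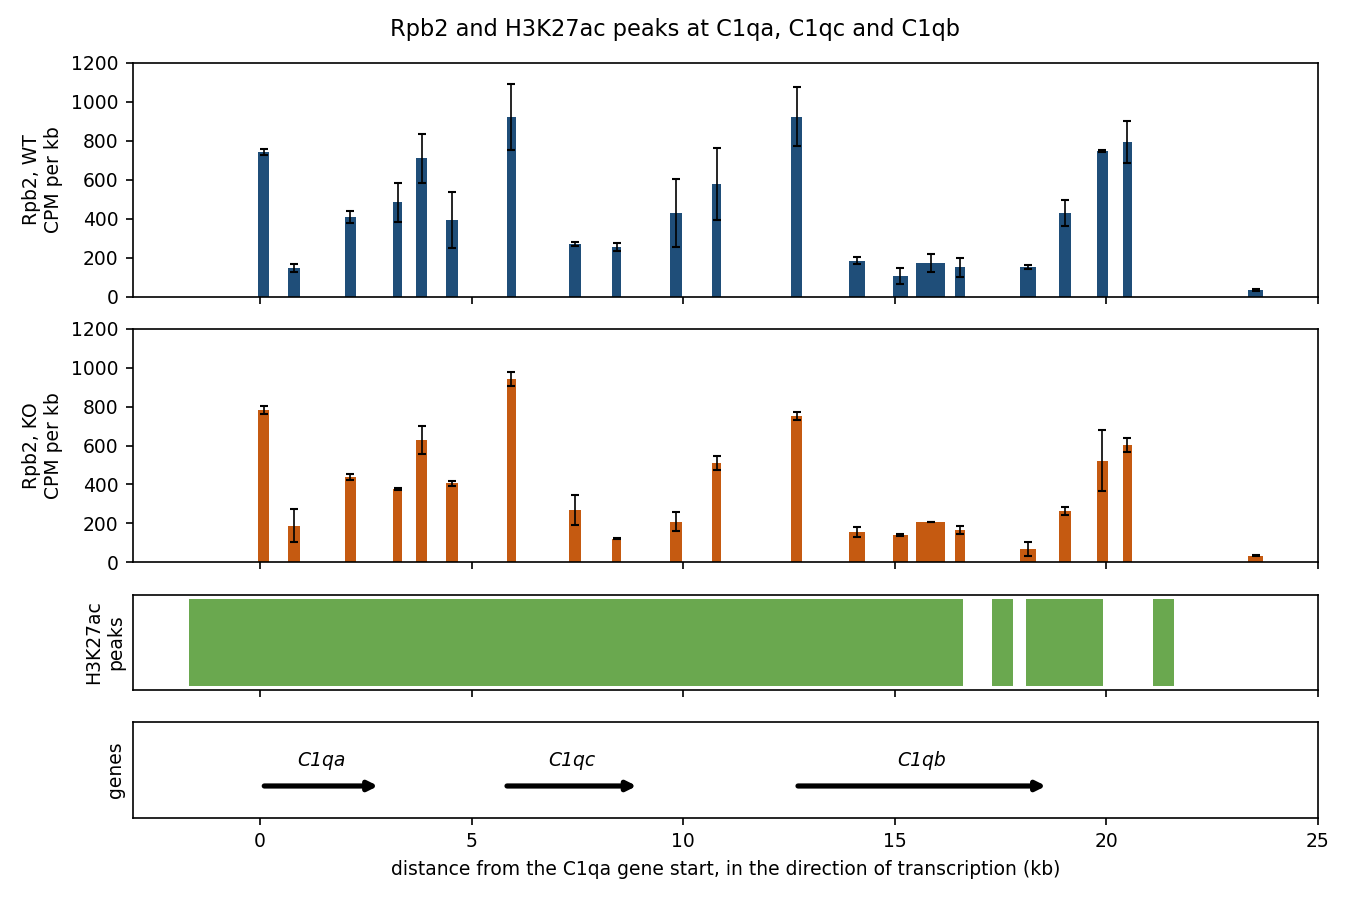
Rpb2 peaks at the C1q cluster as bars of the peak's width (mean CPM per kb, error bars SD, n = 2), above the H3K27ac peaks and the 3 genes, against distance from the start of C1qa in kb. The tallest WT bars stand at the starts of C1qb (925) and C1qc (922), and the first 3 past the end of C1qb, up to 795 in WT, are lower in KO.

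The 3 C1q genes lie head to tail within 18675 bp of chromosome 4 (*C1qa* chr4:136895917-136898803, *C1qc* chr4:136889804-136893065, *C1qb* chr4:136880129-136886187, all on the minus strand), and 21 Rpb2 peaks were named for them. None passed an adjusted p of 0.05 in edgeR's quasi-likelihood test between genotypes, and 4 had an unadjusted p under 0.05, all lower in KO, where 6.06% of all Rpb2 peaks were lower and 6.12% higher by the same measure. Of these 4, 3 were called in WT only, a list chosen toward lower KO. At the start of *C1qa*, which encodes the A chain, the promoter peak (chr4:136898585-136898859) read 208 and 202 CPM in the WT pools and 219 and 211 in KO. The KO pools were above both WT pools by a small margin (log2 fold change 0.07, SE 0.20, adjusted p = 0.908).

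At *C1qb*, the B chain, the promoter peak (chr4:136886002-136886245) read 252 and 200 CPM in WT, against 188 and 180 in KO. The KO pools were under the WT pools, yet the log2 fold change of -0.29 (SE 0.21) had an adjusted p of 0.6005. At *C1qc*, the C chain, the promoter peak (chr4:136892751-136892976) read 236 and 181 CPM in WT, against 207 and 218 in KO, so the pools overlapped (log2 fold change 0.03, SE 0.22, adjusted p = 0.967).

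A run of 4 consecutive peaks extended from the last exon of *C1qb* into the region beyond its end, and in each the KO pools were under the WT pools. All but that at the transcript end were called in WT only, so they entered through the genotype in which they are high. Of all WT-only peaks, 63.0% had both KO pools below both WT pools. In the last exon (chr4:136880465-136880852) the pools had 61.4 and 56.0 CPM in WT, against 35.6 and 16.0 in KO (log2 fold change -1.16, SE 0.46, adjusted p = 0.343). At the transcript end (chr4:136879636-136879930) they had 141 and 113 in WT, against 82.2 and 72.9 in KO (log2 fold change -0.71, SE 0.27, adjusted p = 0.328).
The next peaks downstream, at chr4:136878767-136879026 and chr4:136878190-136878414, had log2 fold changes of -0.51 (SE 0.25, adjusted p = 0.438) and -0.40 (SE 0.23, adjusted p = 0.511). *C1qc* had the same order in its last exon (chr4:136890270-136890476), in a peak also called in WT only. The pools there had 56.0 and 50.03 CPM in WT, against 25.3 and 24.96 in KO (log2 fold change -1.07, SE 0.42, adjusted p = 0.335). A WT-only peak at the end of *C1qc* that the files name for *C1qb* (chr4:136888829-136889122) had 163 and 89.5 in WT, against 72.0 and 51.1 in KO (log2 fold change -1.02, SE 0.34, adjusted p = 0.265). That value was -1.39 without the WT male library (adjusted p = 0.00784) and -0.55 without the library labelled WT female (adjusted p = 0.473), in fits where a lone WT library is assumed to vary like the KO pair. The last exon of *C1qa* (chr4:136896546-136896804) did not show this order, with 112 and 100.1 CPM in WT, against 111 and 116 in KO (log2 fold change 0.10, SE 0.26). Past its end, a WT-only peak named for *C1qc* (chr4:136895447-136895658) had 87.9 and 118 CPM in WT, against 80.2 and 79.2 in KO. Both KO pools were under the WT pools there (log2 fold change -0.37, SE 0.28, adjusted p = 0.622). The pools overlapped at the next (chr4:136894848-136895126, log2 fold change -0.17, SE 0.23).

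Over the C1q cluster, the KO pools lay below both WT pools in 8 of 21 peaks and above in 2. Among all Rpb2 peaks the pools lay apart with KO lower in 21.7% and with KO higher in 25.7%. The list from which a peak came bears on this: 9 of the 21 were called in WT only, 6 of the 8 lower peaks among them, and 63.0% of all WT-only peaks had both KO pools below both WT pools. The 12 peaks named for *C1qb* include that at the end of *C1qc* (log2 fold change -1.02). Summed over these 12, *C1qb* had 1375 and 1186 CPM in WT, against 1120 and 1008 in KO (log2 fold change -0.27, SE 0.10, adjusted p = 0.335). Scaling to total reads put this at -0.017 (adjusted p = 0.980) and summing start-site peaks alone at -0.16 (adjusted p = 0.848). It was the only member gene with an unadjusted p under 0.05 when peaks were summed: 1 of 8 lower and 0 higher, against 5.24% lower and 5.55% higher of all genes. *C1qa* had 355 and 326 CPM in WT against 371 and 408 in KO (log2 fold change 0.19, SE 0.15, adjusted p = 0.691), and *C1qc* 744 and 714 against 721 and 677 (log2 fold change -0.06, SE 0.11, adjusted p = 0.896). The direction of the *C1qc* sum turned to above 0 when libraries were scaled to total reads and when only peaks near a start were summed.

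**Figure D2:**
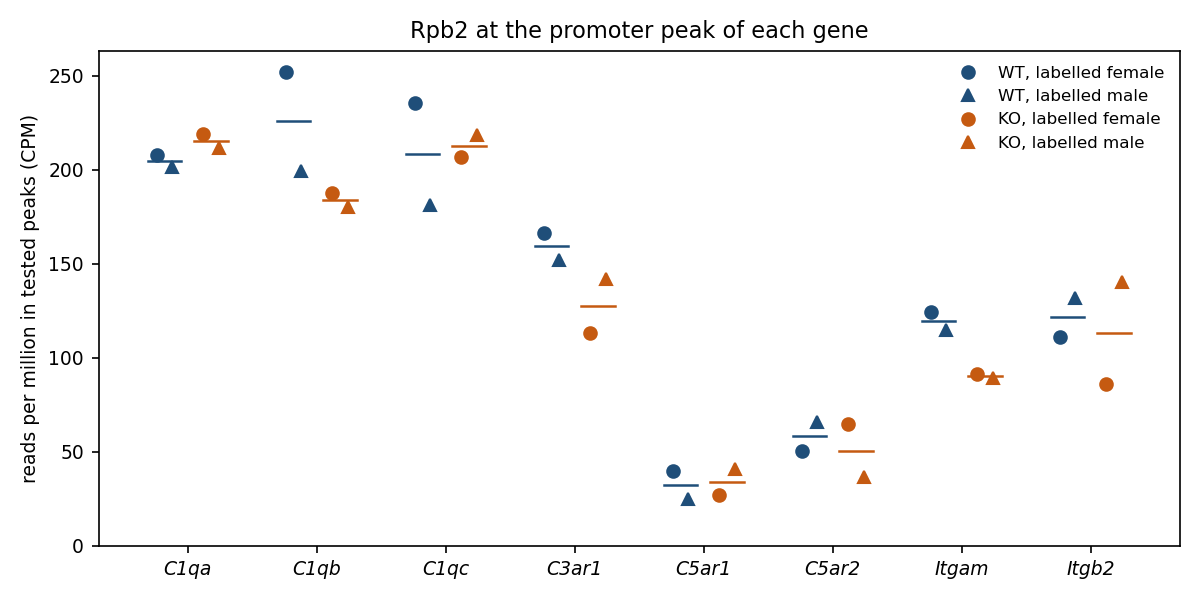
Rpb2 at the promoter peak of each gene in CPM, with 1 point per pool (circles labelled female, triangles labelled male) and lines at the genotype means. The C1q genes sit between 180 and 252 CPM, and the WT and KO pools lie apart at C1qa (KO higher) and at C1qb, C3ar1 and Itgam (KO lower). These peaks were called in both lists. Of all Rpb2 peaks of both lists, the pools lay apart with KO higher in 10.2% and with KO lower in 29.9%.

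Of the anaphylatoxin receptors, *C3ar1*, which binds C3a, had a promoter peak (chr6:122855935-122856172) with 166 and 152 CPM in WT, against 113 and 142 in KO. The KO pools were below both WT pools (log2 fold change -0.32, SE 0.24, adjusted p = 0.611). In its 3′ untranslated region (chr6:122847517-122847750) the values were 32.7 and 63.9 in WT, against 9.8 and 23.4 in KO (log2 fold change -1.57, SE 0.57, adjusted p = 0.301). That peak was called in WT only. With a library left out it ranged from -0.998 without the WT male library (adjusted p = 0.407) and -1.05 without the KO female library (adjusted p = 0.873) to -1.99 without the library labelled WT female (adjusted p = 0.0173, the lone WT library being assumed to vary like the KO pair) and -2.30 without the KO male library (adjusted p = 0.846). Over its 8 peaks *C3ar1* had 438 and 435 CPM in WT, against 400 and 416 in KO (log2 fold change -0.10, SE 0.14, adjusted p = 0.851), although 2 of the 8 lie at the end of the neighbouring gene *Foxj2*.

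*C5ar1*, the signalling receptor for C5a, had 39.7 and 25.02 CPM in WT, against 26.9 and 40.6 in KO at its promoter peak (chr7:16258995-16259387), with overlapping pools (log2 fold change 0.06, SE 0.48, adjusted p = 0.973). Its intronic peak with most reads (chr7:16257992-16258223) had 52.1 and 29.0 in WT, against 46.0 and 49.9 in KO. *C5ar2*, the second C5a receptor, has 2 annotated starts. At the upstream start (chr7:16244005-16244202) the pools had 50.5 and 65.8 in WT, against 64.7 and 36.3 in KO (log2 fold change -0.20, SE 0.39, adjusted p = 0.870). At the downstream start (chr7:16242188-16242432) they had 38.9 and 73.1 in WT, against 54.0 and 13.7 in KO, so the KO male pool was the lowest (log2 fold change -0.70, SE 0.57, adjusted p = 0.641). The most-read *C5ar2* peak, in an intron (chr7:16239604-16239857), had 110 and 67.2 in WT, against 109 and 81.9 in KO. Summed over peaks, the log2 fold change was 0.23 for *C5ar1* (SE 0.30, adjusted p = 0.823) and -0.13 for *C5ar2* (SE 0.22, adjusted p = 0.883). Leaving out 1 library turned the sign of both.

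For complement receptor 3, the *Itgam* promoter peak (chr7:128062603-128062855) had 124 and 115 CPM in WT, against 91.1 and 89.3 in KO, with the KO pools below both WT pools (log2 fold change -0.40, SE 0.26, adjusted p = 0.549). The *Itgb2* promoter peak (chr10:77530301-77530529) had 111 and 132 in WT, against 86.0 and 140 in KO, with overlapping pools (log2 fold change -0.11, SE 0.29, adjusted p = 0.903). Inside *Itgam*, a peak over an internal exon (chr7:128081596-128081849) had 0 reads in both WT libraries and 42 and 22 reads in KO. Against a floor of 3 reads per library the KO level of 8.11 ± 0.668 CPM was at least 3.77-fold higher (adjusted p = 0.211). An intronic peak (chr7:128087187-128087526) had 7 and 1 reads in WT but 107 and 29 in KO (log2 fold change 2.36, SE 1.03, adjusted p = 0.380). Both were called in KO only. Both thus entered the table through the genotype in which they are high. For the exon peak the adjusted p was 0.0364 in DESeq2, 0.421 in limma, 0.541 with the sex label as a block and 0.814 with loess offsets. It was 0.0210 and 0.0341 with a WT library left out, and 0.875 and 0.954 with a KO library left out. The intronic peak had a log2 fold change of 4.47 without the library labelled WT female (adjusted p = 0.00941), 1.51 without the WT male library (adjusted p = 0.301) and 0.98 with loess offsets (adjusted p = 0.861). Wherever a WT library is left out, the other stands alone and is assumed to vary like the KO pair. Summed, *Itgam* had 212 and 192 CPM in WT, against 195 and 213 in KO (log2 fold change 0.01, SE 0.20) and *Itgb2* had 212 and 250 in WT, against 205 and 318 in KO (log2 fold change 0.17, SE 0.21), with adjusted p-values of 0.994 and 0.813. Of the 11 Rpb2 peaks over the *Itgam* body, 6 carry its name and the others, toward its end, that of its neighbour *Itgax*, and 1 of the 7 over *Itgb2* is named for *Pttg1ip*.

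Across all 51 Rpb2 peaks of the members, 0 passed the adjusted threshold in edgeR, against 0.00749% of 26706 peaks, and 1 passed in DESeq2, which called 1022 of all peaks. With the unadjusted p, 2 were higher in KO and 5 lower, or 3.92% and 9.80% of the members, beside 6.12% and 6.06% of all peaks. The pools lay apart with KO higher in 9 and lower in 13, or 17.6% and 25.5%, against 25.7% and 21.7% of all peaks. The median log2 fold change of the members was 0.03, and that of all peaks 0.04. Summed by gene, 0 of the 8 members and 0% of 10206 genes passed. By list, 14 members were called in WT only (27.5%, against 13.7% of all peaks), with a median log2 fold change of -0.61, and 19 in KO only (37.3%, against 53.0%), with a median of 0.24. The medians of all peaks were -0.89 in WT only and 0.51 in KO only. The 18 members called in both lists had a median of 0.04, beside -0.17 for all peaks of both lists. All 18 lay between -0.71 and 0.36.

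**Figure D3:**
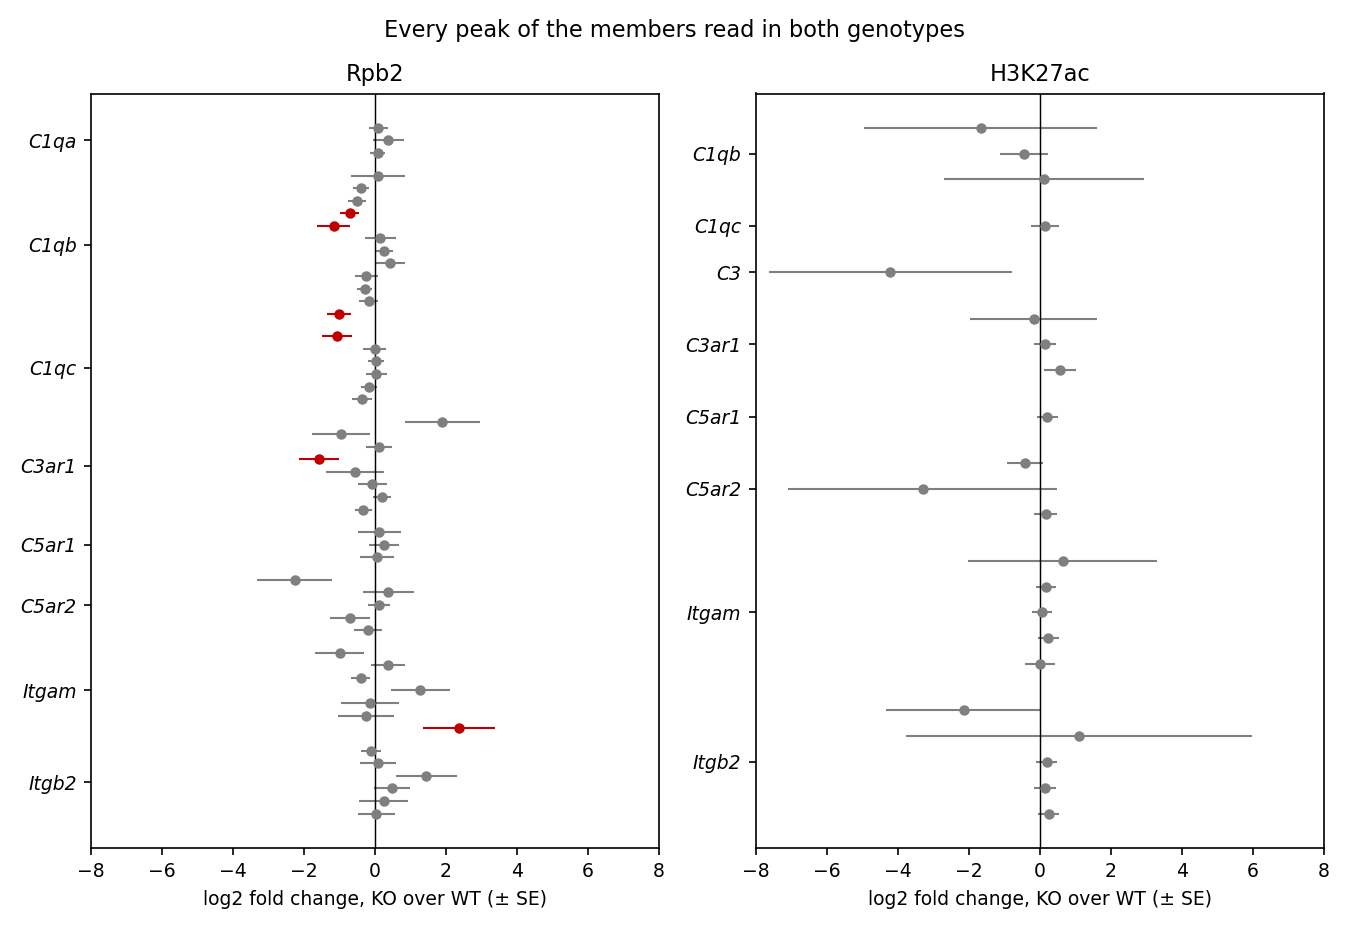
Log2 fold change, KO over WT, with SE for each member peak, in rows by gene and genome position, Rpb2 left and H3K27ac right. Red marks an unadjusted p under 0.05, grey the others, and 3 peaks with 0 reads in both libraries of a genotype are left out. The H3K27ac peaks with short error bars lie close to 0.

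Acetylation covered the members in broad domains. A domain of 18291 bp (chr4:136882197-136900487), named for *C1qc*, covered all of *C1qa* and *C1qc* and the first part of *C1qb*. In WT it ranked 16 of 55798 peaks by CPM and 8 by CPM per kb (42.1), and its width ranked 121. The pools had 669 and 871 CPM in WT, against 865 and 837 in KO (log2 fold change 0.14, SE 0.39, adjusted p = 0.99998). The WT female pool was the lowest and the WT male pool the highest of the 4. The peaks that the file names for *C1qa* and *C3* do not report on those genes: the first lies at -14946 bp from the *C1qa* start and holds 24 reads, all from the WT female library, and the second at -6149 bp from the *C3* start, with 32 and 0 reads in the WT pools against 6 and 0 for KO. No H3K27ac peak overlapped the body of *C3*. At *C1qb*, 3 small peaks summed to 12.7 and 18.0 CPM in WT, against 10.8 and 10.5 in KO (log2 fold change -0.52, SE 0.67, adjusted p = 0.986).

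The *C5ar2* domain (chr7:16238087-16246886, 8800 bp), which holds both its starts, had 153 and 347 CPM in WT, against 273 and 292 in KO. The *C5ar1* domain (chr7:16249978-16262756) had 120 and 210 in WT, against 188 and 197 in KO, and the *C3ar1* domain (chr6:122851209-122857488) 98.9 and 218 in WT, against 179 and 174 in KO. In these 3 receptors the KO pools lay between the WT female pool and the WT male pool.
*Itgam* had 4 peaks called in both lists, of which that over its start (chr7:128060641-128069691) had 114 and 173 CPM in WT, against 177 and 163 in KO. *Itgb2* had 3, of which the largest (chr10:77535453-77546397) had 189 and 215 in WT, against 223 and 226 in KO, so both KO pools were above both WT pools. In CPM per kb of these domains in WT, *C5ar2* (28.4, rank 227) and *C3ar1* (25.2, rank 513) stood above *Itgb2* (18.5), *Itgam* (15.8) and *C5ar1* (12.9).

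**Figure D4:**
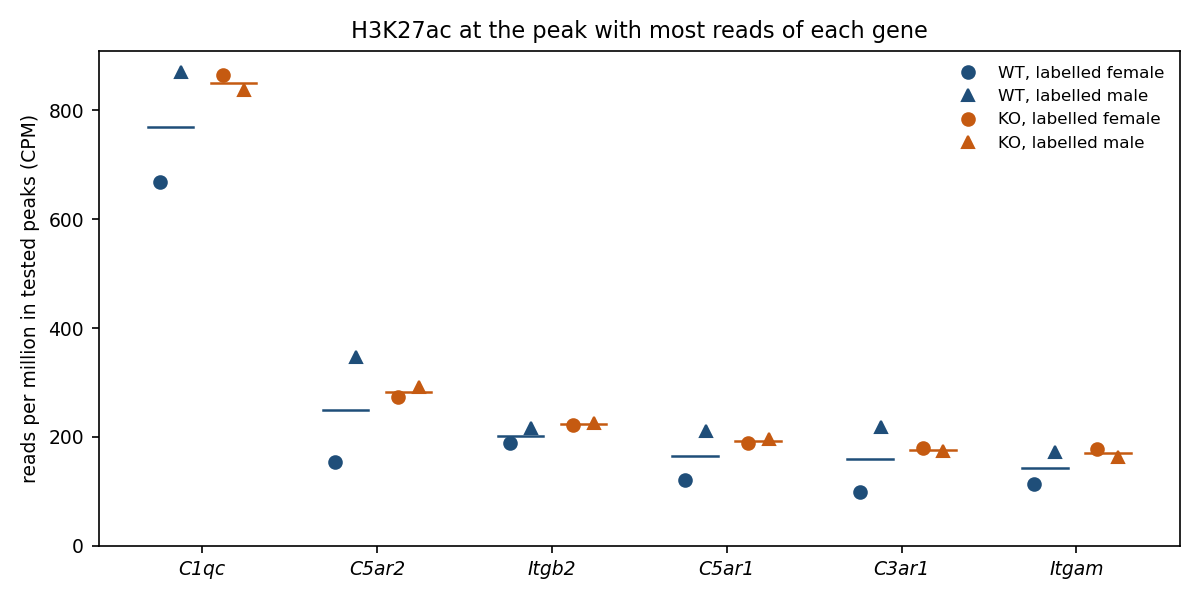
H3K27ac at the peak with most reads of 6 genes in CPM, with 1 point per pool (circles labelled female, triangles labelled male) and lines at the genotype means. The WT female pool is the lowest at all 6, and at C1qc, C3ar1, C5ar1 and C5ar2 the WT male pool is the highest.

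Of the 24 H3K27ac peaks, 0 passed the adjusted threshold in edgeR, against 0.0233% of all peaks, and 0 passed in DESeq2 or in limma. None had an unadjusted p under 0.05, beside 1.35% higher and 3.6% lower of all peaks. The pools lay apart with KO higher in 5 and lower in 3 of the 24, or 20.8% and 12.5%, against 14.3% and 13% of all peaks. The median log2 fold change was 0.15 for the members and -0.21 for all peaks, and 0.17 against 0.04 for the 13 members and 21033 peaks called in both lists.
Summed by gene, 0 of 9 passed, against 0% of 16938 genes, and 0 had an unadjusted p under 0.05, beside 0.951% higher and 5.53% lower. Of the 6 genes with a large domain of their own name, *C5ar1* stood at a log2 fold change of 0.21 (SE 0.30), *Itgb2* 0.17 (SE 0.29), *Itgam* 0.16 (SE 0.31), *C3ar1* 0.16 (SE 0.31), *C1qc* 0.14 (SE 0.34) and *C5ar2* 0.12 (SE 0.35), with adjusted p-values of 0.992 to 0.999.

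These H3K27ac values rested on which WT library was used. In the 13 peaks called in both lists, the WT female library, the one with 15.9% of its reads in peaks, was the lowest of the 4 in 10, and the WT male library the highest in 8. WT female minus WT male had a median of -0.38 on the log2 scale over these 13, and of -0.15 over all 21033, whereas KO female minus KO male had medians of 0.04 and 0.02. Without the WT male library, the 6 genes with a large domain of their own name all stood above 0. They ran from 0.32 for *Itgb2* to 0.90 for *C5ar2* in log2 fold change. Without the WT female library, *C5ar2* turned to a log2 fold change of -0.38 (SE 0.10), and *C1qc*, *C3ar1*, *C5ar1* and *Itgam* also turned to below 0. In each of these fits the remaining WT library stands alone and is assumed to vary like the KO pair.

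**Figure D5:**
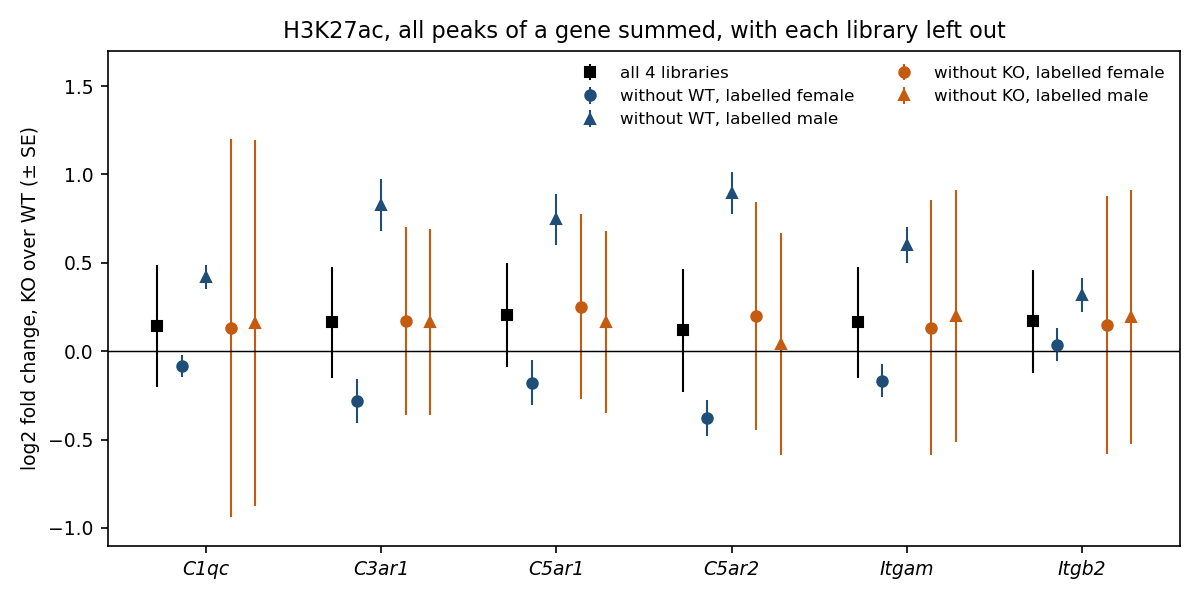
Log2 fold change, KO over WT, with SE of summed H3K27ac for 6 genes, from all 4 libraries (square) and with each library left out (circles labelled female, triangles labelled male, WT blue, KO orange). Values lie above 0 without the WT male library and at or below 0.04 without the WT female library.

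Polymerase and acetylation coincided at 39 of the 51 Rpb2 peaks (76.5%, at least 1 bp of overlap), beside 76.6% of all Rpb2 peaks. In the C1q cluster it was 19 of 21. Only *C5ar2* and *Itgb2* had peaks centred within 1000 bp of a start in both marks. Over their 8 log2 values of CPM per kb, the nearest of 6680 genes were *Zfp687* (distance 0.64) and *Slc39a1* (0.77) for *C5ar2*, and *Slc30a9* (0.43) and *Tnfaip3* (0.53) for *Itgb2*.

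Other genes of the pathway were taken from a list of 55: further classical, lectin, alternative and terminal components, regulators and receptors. Rpb2 peaks were named for 14 of them, with 45 peaks, of which 0 passed in edgeR or DESeq2. At an unadjusted p under 0.05, 3 were higher (6.67%) and 0 lower, beside 6.12% and 6.06% of all Rpb2 peaks. Among those with most reads were *Lrp1*, a receptor that takes part in C1q uptake, *Calr*, which encodes calreticulin, a C1q-binding protein, *Itgax*, the CD11c chain of complement receptor 4, and *Cr2*, a receptor of C3 fragments.
*Lrp1* had 461 and 458 CPM in WT, against 430 and 531 in KO (log2 fold change 0.06, SE 0.14), and *Calr* 309 and 233 against 268 and 282 (0.02, SE 0.18). *Cr2* had 98.4 and 118 in WT, against 87.4 and 115 in KO (-0.11, SE 0.28). *Itgax* had 66.4 and 82.2 CPM in WT, against 136 and 103 in KO, both KO pools being higher (log2 fold change 0.68, SE 0.29, adjusted p = 0.392). It was the only gene of the 14 with an unadjusted p under 0.05 (7.14%), beside 5.55% higher and 5.24% lower of all genes. Its peaks include those over the *Itgam* body.
H3K27ac peaks were named for 30 of the 55, with 118 peaks, of which 0 passed in edgeR. In DESeq2 4 passed, all lower, in a fit that called 208 of 55798 peaks lower and 32 higher. At an unadjusted p under 0.05, 0 were higher and 6 lower (5.08%), beside 1.35% and 3.6% of all H3K27ac peaks. By gene, 8 lay above 0 and 22 below, beside 7056 above and 9882 below of all genes. *Lrp1* had 710 and 1084 CPM in WT, against 1023 and 1004 in KO (log2 fold change 0.18, SE 0.36), *Csmd3* -0.06 (SE 0.30), *Masp1* 0.07 (SE 0.24), *C1ra* 0.21 (SE 0.24) and *Cpn2* -0.23 (SE 0.25). A peak carries the name of the nearest start, so a name need not mean that the gene is transcribed.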

How the data were processed

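Microglia from pools of 3 mice were fixed, sorted and used for ChIP-seq of Rpb2 and H3K27ac, in 8 libraries. The 4 input samples were not used here. The deposited values are raw read counts per merged peak, made by the authors: single-end reads of 51 nt were mapped to mm10 with Bowtie 2 and unique hits kept, HOMER peaks reproducible within a genotype were retained, and the WT and KO lists were merged. Versions and which of 2 sequencers ran each library are not given in the sources used here. No column of per-sample values was left unused (0).

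Peaks averaging 4 reads or more in either genotype were tested for KO against WT with edgeR 4.0.16 (quasi-likelihood, TMM scaling, R 4.3.3), with Benjamini-Hochberg adjustment over all tested peaks. Reads were also summed over peaks of the same gene name and tested in the same way. The sex label was not a term, and p-values reflect the spread between 2 pools a genotype. CPM are counts scaled to the TMM-adjusted reads in tested peaks. SE is the log2 fold change divided by the root of the F statistic. An exact permutation test of 1 value cannot go below p = 0.333 with 2 pools against 2. All 9 members were named. Their promoter peaks were those within 1000 bp of a start with most reads, and other peaks were named where the unadjusted p was under 0.05 or where they held most reads. Peaks next in position to these, the second start of *C5ar2*, the last exon of *C1qa* and peaks upstream of the *C1qc* and *C1qb* starts were named after their values were seen. Of the other complement genes, the 5 with most reads in each mark were to be named, of which 1 is not reported here. Gene positions are from GENCODE M21 on GRCm38, whose chromosome names and lengths hold every peak, and sequences from RefSeq. Floors of 3 reads cover counting error only. Alternatives were RLE or total-read scaling, loess offsets, DESeq2 1.42.0, limma 3.58.1, other filters, the sex label as a block, start-site or shared peaks only, and leaving out each library. The fits were tested on simulated counts. Members, lists and tests were chosen with earlier results of these data known.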

Additional observations from a re-analysis of the deposited data

Results flagged for a closer look

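KO over WT was taken separately within the pools labelled female and the pools labelled male, summed over the peaks of a gene. It went in opposite directions for 9 combinations of gene and mark, out of 8 genes in Rpb2 and 9 in H3K27ac. How often this held over all genes was not counted. With 1 pool per genotype and label the difference was not tested. In H3K27ac, the log2 ratio was above 0 in the pools labelled female and below 0 in those labelled male for *C1qc* (0.44 and -0.10), *C3ar1* (0.83 and -0.28), *C5ar1* (0.71 and -0.14), *C5ar2* (0.82 and -0.30) and *Itgam* (0.63 and -0.20). The WT female library of this comparison had 15.9% of its reads in peaks, against 61.4% in the WT male library, and the part of this in the 5 differences was not tested. In Rpb2, the ratio was below 0 in the pools labelled female and above 0 in those labelled male for *C5ar1* (-0.14 and 0.64), *Itgam* (-0.12 and 0.15) and *Itgb2* (-0.047 and 0.34), and the reverse for *C5ar2* (0.22 and -0.57). There the library labelled WT female held 136 reads at Y-linked genes, so these 4 do not compare the sexes.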

How the results depend on the processing

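In Rpb2 the sex labels give the 2 genotypes a shared number only, since the label WT female goes against its reads. In H3K27ac the labels match the Y-linked reads: 0 in WT female and in KO female, 281 in WT male and 656 in KO male. The correlation of same-labelled deviations was -0.00762 in Rpb2 and -0.000271 in H3K27ac. With the label as a replicate block, 0 member peaks and 0 member genes passed in either mark, while calls over all features were 4 Rpb2 peaks, 43 Rpb2 genes, 12 H3K27ac peaks and 140 H3K27ac genes, against 2, 0, 13 and 0 without it. Over the other alternatives that kept all libraries, calls ran from 0 to 1022 (DESeq2) for Rpb2 peaks, 0 to 28 for Rpb2 genes, 0 to 240 (DESeq2) for H3K27ac peaks and 0 to 213 (DESeq2) for H3K27ac genes, and with a library left out from 0 to 2210, 0 to 264, 2 to 8157 and 88 to 3807.

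Member calls stayed at 0 except for 1 Rpb2 peak in DESeq2 and when a library was left out: 0 to 5 Rpb2 peaks, 0 to 7 H3K27ac peaks and 0 to 6 H3K27ac genes. The 5 came without the library labelled WT female (2 without the WT male library), and the 7 and the 6 without the WT male library. Other complement genes had 4 H3K27ac peaks called in DESeq2, and, with a library left out, 0 to 3 Rpb2 peaks, 0 to 21 H3K27ac peaks and 0 to 5 H3K27ac genes. Scaling to total reads moved the median of all peaks from 0.04 to 0.37 in Rpb2 and from -0.21 to 0.53 in H3K27ac, and that of the member H3K27ac peaks from 0.15 to 0.65. Loess offsets put the last at -0.061, and leaving out the WT female library at -0.13. The Rpb2 sum of *C1qb* fell short of an unadjusted p under 0.05 with total reads (-0.017), start-site peaks (-0.16) and without the library labelled WT female (-0.18) or the KO male library (-0.19). The causes were not tested.

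No sign that turned belonged to a called value with all libraries. With total reads, Rpb2 promoter peaks turned at *C1qb* (0.034), *C3ar1* (0.025), *C5ar2* (0.088) and *Itgb2* (0.26), Rpb2 sums at *C1qc* (0.19), *C3ar1* (0.16) and *C5ar2* (0.091), and the H3K27ac sum at *C1qb* (0.084). With loess offsets, the *Itgb2* promoter peak (0.012), the *Itgam* Rpb2 sum (-0.0049), the H3K27ac domain (-0.13) and sum (-0.023) of *C1qc* and the H3K27ac sum of *C3* (1.48) turned. The *Itgam* Rpb2 sum also turned with RLE (-0.0076), DESeq2 (-0.0077), limma (-0.010) and start-site peaks only (-0.12), which turned *C1qc* too (0.17). The *C5ar1* promoter peak turned in limma (-0.031), and that of *Itgb2* with 10 reads in every library (0.023), start-site peaks (0.015) and shared peaks (0.058).

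With a library left out, Rpb2 promoter peaks ranged from -0.14 to 0.22 at *C1qc*, -0.26 to 0.41 at *C5ar1*, -0.68 to 0.15 at *C5ar2* and -0.50 to 0.20 at *Itgb2*. Rpb2 sums ranged from -0.024 to 0.51 at *C5ar1*, -0.51 to 0.16 at *C5ar2*, -0.060 to 0.078 at *Itgam* and -0.17 to 0.46 at *Itgb2*. H3K27ac sums ranged from -0.084 to 0.42 at *C1qc* (its domain -0.040 to 0.35), -0.28 to 0.83 at *C3ar1*, -0.18 to 0.75 at *C5ar1*, -0.38 to 0.90 at *C5ar2* and -0.17 to 0.60 at *Itgam*. The SE of the Rpb2 promoter peaks ran from 0.20 to 0.48, and differences of that size were not detectable with 2 pools a genotype. A larger one at the end of *C1qc* (-1.02, SE 0.34) did not pass either.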

Other observations

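Some complement genes had H3K27ac reads almost wholly in the WT female library, and these were chosen after their values were seen. *Csmd1*, which encodes a membrane regulator of complement, had 191 of its 203 reads there over 9 peaks, against 2 in the WT male library and 0 and 10 in KO. *Fcnb*, a ficolin of the lectin pathway, had 96 of 115 reads there, 0 in WT male and 19 and 0 in KO. The low share of that library's reads in peaks (15.9%) stands beside these values, and its part in them was not tested.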
